A study of Mus musculus with 4 samples.

Results

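The collagen genes of the mouse lung were followed through the cell populations of injured lungs that had or lacked β-III tubulin. They were taken by name, as every symbol made of Col, a number, a and a number, which gave 44 of the 32286 genes in the files, and all 44 had at least 1 unique molecular identifier (UMI, 1 captured transcript end). Cells came from 2 WT and 2 Tubb3-/- mice, 8 to 11 weeks old, all killed 14 days after 0.8 U/kg bleomycin, a drug that injures and scars the lung when given into the trachea. Tubb3-/- mice were homozygous for Cre placed at the translation start of Tubb3, the gene of β-III tubulin, and WT mice were their littermates. The deletion is in all cells and not in 1 cell type, and lungs without bleomycin were not analysed here, so every comparison of genotypes is between injured lungs. Each mouse gave a library of whole lung cells, depleted of red blood cells by TER-119 and sorted as live, and a mural cell-enriched library, depleted of CD31, CD45, EpCAM and TER-119 cells, in which sorted MCAM+ PDGFRα- and MCAM- cells were mixed at equal parts. Mural cells are the pericytes and smooth muscle cells that wrap blood vessels.

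Collagens are proteins wound into triple helices, and they make up most of the scar in a fibrotic lung. Fibrillar collagens (types I, III and V) form the tensile fibers of the interstitium, and FACIT collagens decorate these fibers. Type IV collagens form the sheet of the basement membrane under epithelium and endothelium and around mural cells. Type VI collagens form beaded filaments at the cell border, multiplexins (types XV and XVIII) bridge basement membranes to the stroma, and transmembrane collagens such as types XIII and XXIII stay anchored in the cell surface. The helices of types I and IV combine chains from different genes, so that the relation between partner chains is of interest beside their level.

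The promoters of 4 members are shown, because Col3a1 and Col1a2 were the highest collagens of the fibroblasts, and because Col4a1 and Col4a2, which led in endothelial cells, start from overlapping windows. Each window is 300 bases long, from 250 before to 50 after a start site, taken from RefSeq on GRCm38.p6 and written 5′ to 3′ on the strand of the gene. Capitals mark matches on either strand to the letters of 3 common promoter elements, and no printed match overlaps another. The CCAAT box was searched by the letters in its name. The TATA box was searched as TATAAA. The GC box was searched as GGGCGG. Col4a1 (ENSMUSG00000031502) lies at chr8:11312777-11313076 on the minus strand and Col4a2 (ENSMUSG00000031503) at chr8:11312555-11312854 on the plus strand. Col1a2 (ENSMUSG00000029661) lies at chr6:4505368-4505667 and Col3a1 (ENSMUSG00000026043) at chr1:45311288-45311587, both on the plus strand.
Col4a1: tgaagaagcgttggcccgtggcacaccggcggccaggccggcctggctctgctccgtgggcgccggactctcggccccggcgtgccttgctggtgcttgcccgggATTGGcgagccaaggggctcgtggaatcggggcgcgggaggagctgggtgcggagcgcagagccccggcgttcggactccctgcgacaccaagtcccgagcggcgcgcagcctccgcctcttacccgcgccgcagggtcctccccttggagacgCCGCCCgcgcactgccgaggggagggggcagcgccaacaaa
Col4a2: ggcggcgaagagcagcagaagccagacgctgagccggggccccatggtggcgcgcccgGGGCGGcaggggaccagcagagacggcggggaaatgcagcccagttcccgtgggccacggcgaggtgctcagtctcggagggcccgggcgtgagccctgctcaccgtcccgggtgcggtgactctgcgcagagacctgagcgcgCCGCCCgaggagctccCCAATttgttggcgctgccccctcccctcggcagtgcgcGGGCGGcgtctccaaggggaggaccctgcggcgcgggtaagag
Col1a2: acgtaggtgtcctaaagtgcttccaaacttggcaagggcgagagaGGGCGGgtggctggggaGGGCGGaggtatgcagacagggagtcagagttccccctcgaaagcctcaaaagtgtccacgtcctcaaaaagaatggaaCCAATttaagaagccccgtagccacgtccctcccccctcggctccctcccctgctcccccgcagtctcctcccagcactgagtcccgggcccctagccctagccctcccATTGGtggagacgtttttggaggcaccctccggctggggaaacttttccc
Col3a1: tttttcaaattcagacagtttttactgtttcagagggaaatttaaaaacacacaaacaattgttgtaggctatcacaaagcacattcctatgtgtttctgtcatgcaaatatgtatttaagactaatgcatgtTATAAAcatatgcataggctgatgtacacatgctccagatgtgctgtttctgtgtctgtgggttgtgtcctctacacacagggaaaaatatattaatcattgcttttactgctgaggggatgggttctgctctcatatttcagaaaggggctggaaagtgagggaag
The windows of Col4a1 and Col4a2 shared 78 bases, chr8:11312777-11312854, which are the end of both printed sequences, read on opposite strands. Of the 4 windows, a TATA box was found only in that of Col3a1, where the other motifs were not found. Col1a2 held 2 CCAAT boxes and 2 GC boxes, Col4a1 held 1 and 1, and Col4a2 held 1 and 3. RefSeq gave 38 windows for 35 of the 44 members. Among these 38, a CCAAT box was found in 13, a TATA box in 5 and a GC box in 23, and among all 32851 windows the shares were 37.4%, 13.6% and 35.7%. A match is a run of letters, and whether a factor binds there was not measured. The other type IV genes are also head to head, with the start sites of Col4a4 (minus strand) and Col4a3 (plus strand) 72 bases apart on chromosome 1 and those of Col4a6 (minus) and Col4a5 (plus) 1309 bases apart on chromosome X, in GENCODE vM21. The locus of 5 members overlaps another protein-coding gene (Col4a1 and Col4a2 each other, Col18a1, Col10a1 and Col9a3), and 18 members have a gene on the other strand. Some members, such as Col1a2 and Col3a1, overlap 1 gene on their own strand that is not protein-coding. What these overlaps do to the counts was not tested.

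Cells were assigned by marker UMIs, at least 1 of Pdgfra for fibroblasts, Higd1b or Myh11 for mural cells, Cdh5 for endothelial, Epcam for epithelial, Ptprc for immune and Msln for mesothelial cells, the lining of the lung surface. Of 30860 cells past the limits on genes and mitochondrial UMIs, this left 3792 fibroblasts, 4541 mural, 2282 endothelial, 321 epithelial, 4389 immune and 324 mesothelial cells. Another 14442 cells (46.8%) carried markers of several populations and were dropped, and with them went 62.5% of the 5297497 collagen UMIs. Tubb3 stood at 0.858 to 5.36 CPM (counts per 1000000 gene UMIs) in the 4 WT libraries and at 0.275 to 0.695 in the 4 Tubb3-/- libraries, so the labels held. Libraries held 41462258 to 95036340 gene UMIs, with more cells and more UMIs per cell in Tubb3-/- mice in both pools. No barcode was shared by libraries of the same pool, and 1 to 9 were shared by pairs of libraries from different pools. A list of each population joined its rule markers with other markers and was scaled to its level in the cells of the rule. A cell's own list was the highest in 99.4% of fibroblasts, 98.3% of endothelial and 93.9% of immune cells. For mesothelial cells it was 84.0%, for mural 77.3% and for epithelial cells 68.8%. Since the rule markers are in the lists, this is not an independent check. The fibroblast list was the highest in 21.6% of mural cells (18.7% in WT, 24.1% in Tubb3-/- mice). In mesothelial cells it was the highest in 8.95% (7.91% and 10.2%). This list held Pdgfrb, at a median of 213 CPM in mural cells against 77.7 CPM in fibroblasts. The mural list was mostly Acta2 (median 11060 CPM in mural cells). Whether the mural cells with the fibroblast list highest were fibroblasts was not tested. The values with cells of another highest list left out are given beside the results of both populations.

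Of the single-marker populations, fibroblasts carried the most collagen. Over both kinds of library they were 12.3% of all cells and held 23.6% of all collagen UMIs. Mural cells were 14.7% and held 9.42%, and the other single-marker populations held 0.203% to 1.11%. These shares depend on the enrichment for mural cells. In the whole-cell libraries alone, fibroblasts were 9.33% of cells and held 36.0% of collagen UMIs. Mural cells were 3.12% there and held 3.73%, and endothelial cells were 13.1% and held 4.03%. In fibroblasts Col3a1, the type III chain, averaged 4939 CPM over the 4 mice (3406 to 6137), Col1a2 3729 CPM and Col1a1 3246 CPM, the chains of type I. These 3 genes made 67.8% of the collagen UMIs of fibroblasts. Counts are of transcript ends, so levels of different genes were compared without scaling to length. Next came Col5a2 (871 CPM), which limits the width of fibrils, Col4a1 (805 CPM), and the type VI chains Col6a1 (772 CPM), Col6a3 (640 CPM) and Col6a2 (567 CPM).

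Either fibrillar or type IV collagens were the leading class in each population. Fibrillar collagens took 73.8% of the collagen UMIs of fibroblasts (mean of 4 mice), 60.2% of those of mural, 63.2% of those of mesothelial and 67.1% of those of immune cells. Type IV collagens took 71.1% in endothelial and 62.4% in epithelial cells, against 8.51% in fibroblasts, 17.1% in mural and 15.7% in mesothelial cells. Beaded filaments took 11.5% in fibroblasts and 15.7% in mesothelial cells, and multiplexins 7.04% in mural cells. At a mean of 50 CPM or more, 19 members were found in fibroblasts, 18 in mural, 17 in mesothelial, 10 in epithelial, 6 in endothelial and 3 in immune cells. Of the 23 members that reached 50 CPM in some population, 14 were highest in fibroblasts, 5 in mural, 2 in endothelial, 1 in epithelial and 1 in mesothelial cells. For 10 of the 14 in fibroblasts and 4 of the 5 in mural cells, the 4 mice did not overlap with those of the next population.

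Immune cells were taken as a low reference level for the other populations. Some immune cells, such as fibrocytes, are known to carry type I collagen, so free RNA and collagen made by the cells themselves cannot be told apart in this level. In the whole-cell libraries, the 19 members that reached 50 CPM in fibroblasts stood in immune cells at 1.46% to 7.59% of their fibroblast level, with a median of 2.98%. In endothelial cells the same 19 members stood at a median of 3.57%. Endothelial Col1a1 was at 2.26% and 3.88% of the fibroblast level in WT and at 2.91% and 2.19% in Tubb3-/- mice, against 1.58% and 2.92%, and 3.66% and 3.23%, in immune cells. Endothelial cells were thus above immune cells in both WT mice and below them in both Tubb3-/- mice, and the same held for Col1a2. The means of Col3a1 were 3.15% in endothelial and 2.76% in immune cells. No expression by endothelial cells is read from levels so near those of immune cells. Endothelial Col4a1 was at 155% of the fibroblast level, Col4a2 at 179%, Col18a1 at 42.5% and Col15a1 at 34.6%, each above the immune level in every mouse.

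Fibroblasts and mural cells of the same mice differed in most collagens. Of 37 members tested, 31 differed (edgeR quasi-likelihood test with mouse as a covariate, adjusted p under 0.05), 24 higher in fibroblasts and 7 higher in mural cells. Of all genes, 56.9% differed in this contrast, 28.3% higher and 28.6% lower in fibroblasts, so a difference alone was common and the direction was unequal among the members. Of the 4 transmembrane genes, Col13a1 was higher in fibroblasts by 4.34, Col17a1 by 4.24 and Col23a1 by 3.56 on the log2 scale, and Col25a1 was at 0.02 ± 0.73 (SE) and did not pass. Col28a1, an orphan collagen with von Willebrand factor domains, was higher by 3.58. The main fibrillar chains were less unequal, with Col1a2 higher by 1.41, Col1a1 by 1.40 and Col3a1 by 1.19. Mural cells had the higher Col19a1 (log2 fold -6.10 for fibroblasts against mural cells), Col6a4 (-3.47), Col18a1 (-2.86), Col4a6 (-2.75), Col8a1 (-2.06), Col6a6 (-1.26) and Col4a5 (-0.50). Col15a1, the other multiplexin, was at a log2 fold of 0.02 ± 0.08 (SE, edgeR adjusted p = 0.81). Where rule and marker list agreed, 32 of 37 members differed, 25 higher in fibroblasts and 7 higher in mural cells. Col1a1 was then higher in fibroblasts by 1.79, Col3a1 by 1.59 and Col24a1, a minor fibrillar chain, by 3.40, against 1.96 by the rule. These genes were named by their place in this contrast, after their values were seen.

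Several mural collagens belonged to the vessel wall and its basement membrane. Col18a1, which carries the endostatin fragment at its end, had 543 and 455 CPM in mural cells of the WT mice and 653 and 560 CPM in those of the Tubb3-/- mice, against 67.9 to 77.7 CPM in fibroblasts. Col8a1, a short-chain network collagen of vessel walls, had 86.9 and 178 CPM in WT and 170 and 126 CPM in Tubb3-/- mural cells. Col4a6, a chain of smooth muscle basement membranes, had 212, 218, 179 and 194 CPM there and at most 73.0 CPM in any other population. Col19a1, a FACIT collagen, was at 9.26 to 15.6 CPM in mural cells and at 1.44 CPM or less in every mouse of the other populations. The 42 cells with Higd1b, a pericyte marker, and without Myh11, a smooth muscle marker, had 21.4 to 162 CPM of Col18a1 in 3 mice and no UMI in the other, which rests on 0 to 12 UMIs a mouse.

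Endothelial cells were a type IV population. Col4a1 had 1199 and 801 CPM in WT and 1512 and 1497 CPM in Tubb3-/- endothelial cells, and Col4a2 had 748 and 526 against 985 and 946 CPM. Both were the highest levels of these genes in any population, but the mice overlapped with those of fibroblasts. Against mural cells, 31 of 36 members tested differed, 29 higher in mural cells and 2 higher in endothelial cells, where 68.3% of all genes differed, 34.6% higher in mural and 33.7% higher in endothelial cells. The 2 were Col4a1 (log2 fold -0.74 for mural against endothelial cells) and Col4a2 (-0.77). The 3 members with the largest folds to the mural side were Col19a1 (7.59), Col4a6 (7.03) and Col4a5 (5.40), and Col24a1 (4.47) and Col18a1 (4.22) came next. Where rule and list agreed, 28 of 32 members differed, 26 of them higher in mural cells, and Col24a1 was at 3.70.

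Epithelial and mesothelial cells shared the other type IV pair. Col4a3 and Col4a4 make, with Col4a5, the type IV network of alveolar and kidney basement membranes. Col4a3 was highest in epithelial cells (259 CPM, 208 to 385), and Col4a4 was highest in mesothelial cells (296 CPM, 201 to 362), where it overlapped with epithelial cells (236 CPM, 174 to 333). Fibroblasts against mesothelial cells differed in 26 of 33 members tested, 22 higher and 4 lower in fibroblasts, where 39.4% of all genes differed, 20.7% higher and 18.8% lower. The 4 that were higher in mesothelial cells were Col4a4 (log2 fold -5.17), Col4a3 (-4.73), Col6a6 (-1.76) and Col4a6 (-0.83). Where rule and list agreed, 29 of 33 differed, 25 higher and 4 lower in fibroblasts. Col24a1 was then higher in fibroblasts by 6.37, against 2.36 by the rule, and Col8a1 by 2.50, against 0.44.

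The ratio of partner chains was close between mice for some pairs and not for others. The ratio of Col4a1 to Col4a2 was 1.70 to 1.79 in fibroblasts of the 4 mice, 1.47 to 1.66 in mural, 1.52 to 1.60 in endothelial and 1.21 to 1.37 in epithelial cells. The ratio of Col1a1 to Col1a2 was 0.736 to 0.951 in fibroblasts and 0.768 to 0.959 in mural cells, and 0.618 to 1.09 in mesothelial cells. The ratio of Col4a3 to Col4a4 was 0.893 to 1.34 in epithelial and 0.327 to 0.451 in mesothelial cells, and in populations with few UMIs of either it spread more, from 0.336 to 0.812 in fibroblasts and from 0.286 to 1.33 in endothelial cells. Col4a5 and Col4a6 did not keep a ratio between populations, at 5.20 to 6.90 in fibroblasts, 5.38 to 10.7 in epithelial and 1.05 to 1.47 in mural cells. The ratio of Col3a1 to Col4a1 was 5.36 to 6.86 in fibroblasts, 2.88 to 3.74 in mural and 0.130 to 0.286 in endothelial cells. Chains of 1 pair share their library and depth, and no test was made of the ratios.

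**Figure D1:**
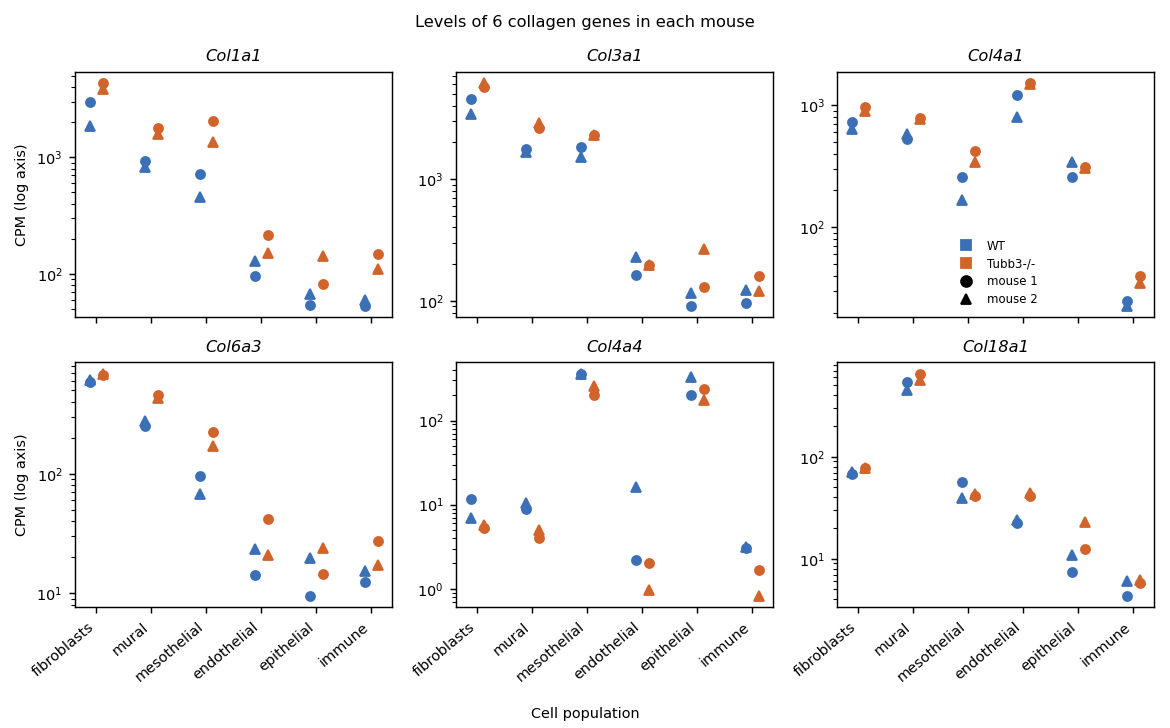
CPM of Col1a1, Col3a1, Col4a1, Col6a3, Col4a4 and Col18a1 in each mouse (points, colored by genotype) of 6 populations, on log axes. Col4a1 is highest in endothelial cells (801 to 1512 CPM), Col18a1 in mural cells and Col4a4 in mesothelial and epithelial cells.

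The collagen share of all UMIs of the Tubb3-/- mice exceeded that of the WT mice, without overlap, in 5 of the 6 populations. In fibroblasts it was 1.64% and 1.28% in WT against 2.10% and 2.06% in Tubb3-/- mice, a ratio of means of 1.42. In mural cells it was 0.750% and 0.720% against 1.13% and 1.11% (ratio 1.53), and in mesothelial cells 0.634% and 0.517% against 1.01% and 0.874% (ratio 1.64). With 2 mice a group, the exact two-sided permutation test cannot go below p = 0.333, and this value was reached in these 3 populations. The share was 0.261% and 0.217% against 0.350% and 0.329% in endothelial cells, and 0.0384% and 0.0460% against 0.0707% and 0.0567% in immune cells (exact permutation p = 0.333 for each). Epithelial cells overlapped, with 0.149% and 0.212% against 0.192% and 0.206% (exact permutation p = 1). The median share of single fibroblasts moved the same way, from 1.37% and 1.04% in WT to 1.77% and 1.80% in Tubb3-/- mice.

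Some of these differences depended on which cells were counted. With cells kept only where rule and marker list agreed, the immune share was 0.0362% and 0.0385% in WT against 0.0388% and 0.0351% in Tubb3-/- mice, and the order of the genotypes was gone. The median share of single immune cells was 0.0351% and 0.0356% against 0.0339% and 0.0346%, so the median cell did not share the larger sum. The mesothelial shares became 0.602% and 0.503% against 0.653% and 0.666% (ratio 1.19), and the mural shares 0.647% and 0.620% against 0.882% and 0.897% (ratio 1.40). Fibroblasts kept a ratio of 1.42. Cthrc1, a marker of fibrotic fibroblasts, moved with these shares. It was at 69.8 and 51.3 CPM in WT against 206 and 99.7 CPM in Tubb3-/- fibroblasts, and 21.1% and 17.4% against 31.9% and 29.1% of fibroblasts had a UMI of it. Fibroblasts of Tubb3-/- mice were also deeper, with medians of 19221 and 18336 UMIs against 16345 and 14670. The share of cells with a UMI was not thinned to equal depth, and immune cells carried Cthrc1 at 3.18 and 2.91 CPM in WT against 8.14 and 8.91 CPM. Another 769 cells had none of the rule markers and are in none of the populations. Their collagen share was 1.26% and 1.06% in WT against 2.23% and 2.05% in Tubb3-/- mice. Cthrc1 was at 327 and 112 against 655 and 453 CPM in them, above its level in fibroblasts.

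**Figure D2:**
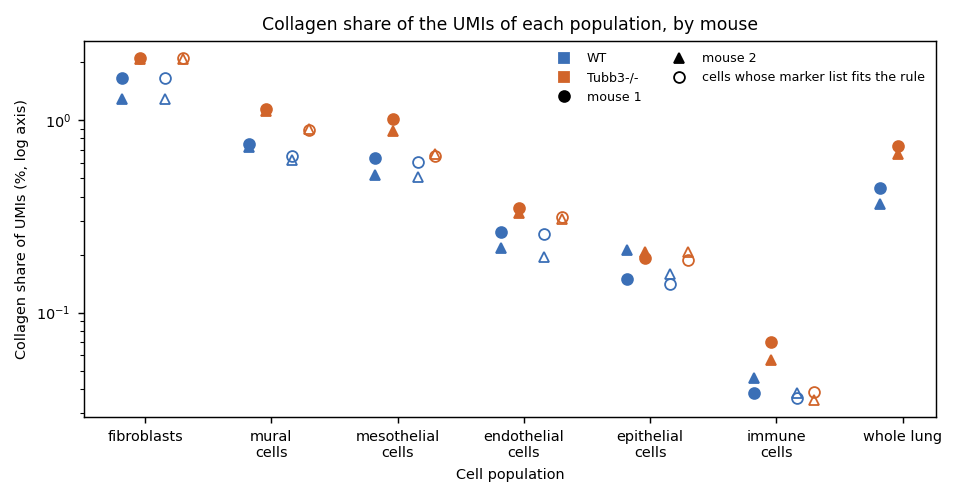
Collagen UMIs as percent of all gene UMIs (log axis) in each mouse, by population, for cells taken by the marker rule (filled) and for those on which rule and marker list agree (open). Tubb3-/- mice lie above WT mice in fibroblasts and mural cells under both choices, and in immune cells only under the rule.

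In fibroblasts no collagen passed the test between genotypes, although the abundant fibrillar chains were higher in both Tubb3-/- mice. Col1a1 had 2987 and 1851 CPM in WT against 4317 and 3828 CPM in Tubb3-/- fibroblasts (log2 fold 0.73 ± 0.28 SE, edgeR adjusted p = 0.251). Col5a2 had 724 and 632 against 1059 and 1070 CPM (0.64 ± 0.14, edgeR adjusted p = 0.122). Col12a1, a FACIT collagen, had 111 and 71.6 against 154 and 132 CPM (0.63 ± 0.24, edgeR adjusted p = 0.260). These 3 were picked as the largest folds among members at 50 CPM or more without overlap. Their lack of overlap is thus no result. WT replicate 2 was the lowest in each. Col3a1 had 4501 and 3406 against 5713 and 6137 CPM (0.57 ± 0.21). Col1a2 had 3554 and 2514 against 4538 and 4309 CPM (0.53 ± 0.23). These chains did not overlap either. Of 35 members tested, 0 passed with edgeR, as did 0% of all genes. With DESeq2, 3 passed (Col5a2, Col24a1 and Col4a2), where 3.47% of all genes did. At an unadjusted p under 0.05 there were 15 members, against 18.1% of all genes. The Tubb3-/- mice lay above both WT mice in 21 members and below in 5, where 24.5% and 23.6% of all genes did. The median log2 fold of the members was 0.19, and that of all genes lay within 0.01 of 0. Without WT replicate 1 the members' median was 0.59, and without cells that had a Cthrc1 UMI it was 0.11. In edgeR 18 members passed without WT replicate 1, and 3 without WT replicate 2.

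The classes did not move together in fibroblasts. Of 10 fibrillar members tested, 8 had positive log2 folds, with a median of 0.54, and 4 of 4 beaded-filament members were positive with a median of 0.19. All 4 transmembrane members had negative folds, with a median of -0.50. Col23a1 had 104 and 142 CPM in WT against 84.2 and 84.8 CPM in Tubb3-/- fibroblasts (-0.54 ± 0.13, edgeR adjusted p = 0.139). Col13a1 had 215 and 318 against 167 and 221 CPM, with overlap. Among the type IV, XV and XVIII chains, Col4a1 had 721 and 635 against 968 and 895 CPM, Col4a2 had 403 and 374 against 562 and 528 CPM, Col15a1 had 92.9 and 57.8 against 95.8 and 94.7 CPM, and Col18a1 had 67.9 and 71.0 against 77.1 and 77.7 CPM. Col23a1 and Col13a1 were named after their values were seen.

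**Figure D3:**
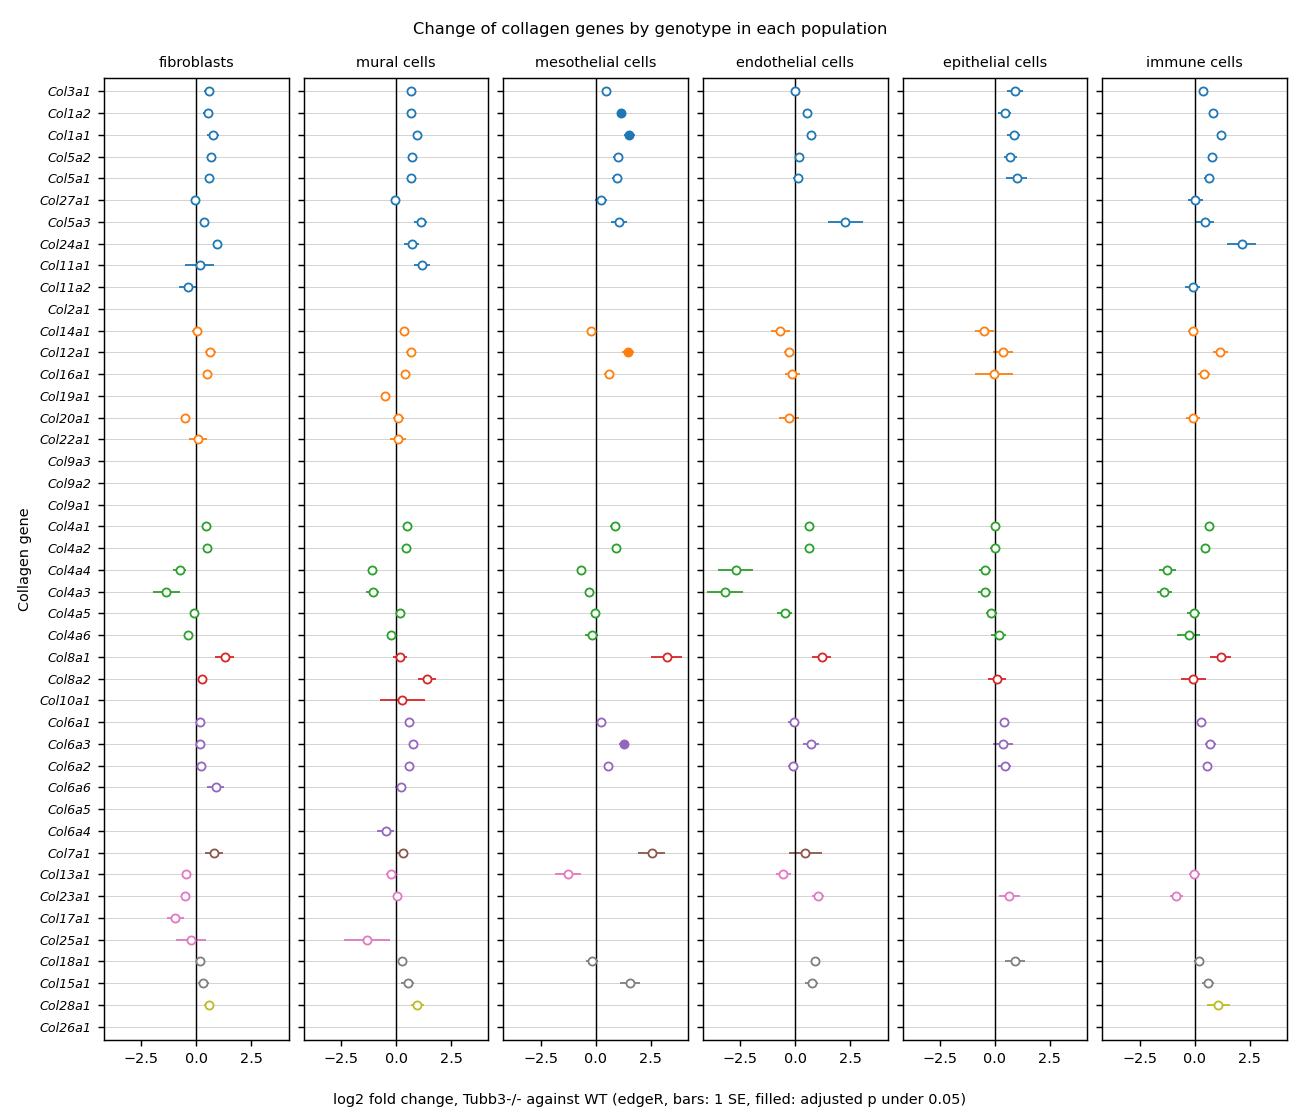
Log2 fold of Tubb3-/- over WT for each tested collagen gene (points, with bars of 1 SE) in 6 populations, with filled points for an edgeR adjusted p under 0.05. The 4 filled points are mesothelial Col1a1, Col1a2, Col12a1 and Col6a3.

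Mural cells had higher fibrillar and type VI levels in both Tubb3-/- mice. Col1a1 had 922 and 820 CPM in WT against 1773 and 1578 CPM in Tubb3-/- mural cells (log2 fold 0.94 ± 0.16 SE, edgeR adjusted p = 0.177). Col6a3 had 249 and 274 against 457 and 433 CPM (0.77 ± 0.11, edgeR adjusted p = 0.146), and Col3a1 had 1778 and 1663 against 2632 and 2898 CPM (0.68 ± 0.14, edgeR adjusted p = 0.204). The genotypes did not overlap in these 3 genes. Col1a1, Col6a3 and Col5a2 were picked as the largest folds among members at 50 CPM or more without overlap. Col5a2 had 334 and 320 against 557 and 516 CPM (0.71 ± 0.12, edgeR adjusted p = 0.177). Col1a2 had 1163 and 1068 against 1849 and 1749 CPM (0.68 ± 0.14). Col4a1, Col4a2 and Col15a1 lay above as well, without passing. Col4a1 had 527 and 578 against 786 and 774 CPM (0.50 ± 0.11). Col4a2 had 319 and 394 against 478 and 483 CPM (0.43 ± 0.11). Col15a1 had 89.2 and 53.0 against 118 and 91.2 CPM (0.53 ± 0.29). Of 36 members tested, 0 passed with edgeR, as did 0% of all genes, and 19 had an unadjusted p under 0.05, against 11.1% of all genes. DESeq2 called 10, all higher in Tubb3-/- mice, against 1.11% of all genes. For edgeR the count was 14 without WT replicate 1 and 9 without WT replicate 2. The members lay above in 22 and below in 5, against 22.2% and 18.9% of all genes, and their median log2 fold was 0.38. Fibrillar members had a median of 0.71 (9 tested) and beaded-filament members one of 0.58 (5 tested), while Col18a1 was at 0.28 ± 0.17 (edgeR adjusted p = 0.614). Where rule and marker list agreed, 0 of 32 members passed with edgeR, 21 had an unadjusted p under 0.05, the median log2 fold was 0.41, and Col1a1 was at 0.71 ± 0.10 (edgeR adjusted p = 0.0789).

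Calls were found in the 4038 of 4541 mural cells that had Myh11 and no Higd1b. Only 42 had Higd1b without Myh11, so most cells with Higd1b also held a Myh11 UMI. This marker therefore does not set smooth muscle apart from pericytes here. In the 4038 cells, 9 of 35 members rose in Tubb3-/- mice, 6 fibrillar and 3 type VI, against 0.853% of all genes. Of the members, 23 had an unadjusted p under 0.05, against 14% of all genes. Col1a1 had 915 and 873 CPM in WT against 1813 and 1666 CPM (log2 fold 0.95 ± 0.11 SE, edgeR adjusted p = 0.0331). Col6a3 had 244 and 273 against 456 and 434 CPM (0.77 ± 0.09, edgeR adjusted p = 0.0331), and Col3a1 had 1731 and 1741 against 2657 and 2969 CPM (0.68 ± 0.09, edgeR adjusted p = 0.0347). Col5a3, a minor type V chain, had 10.1 and 7.05 against 21.2 and 25.4 CPM, the largest fold of the 9 (1.38 ± 0.20, edgeR adjusted p = 0.0382). The others were Col1a2, Col5a1, Col5a2, Col6a1 and Col6a2, with log2 folds of 0.61 to 0.75 and edgeR adjusted p of 0.0375 to 0.0489. Of these, the type I and V chains were Col1a2 (1163 and 1120 against 1882 and 1829 CPM), Col5a1 (129 and 122 against 220 and 207 CPM) and Col5a2 (325 and 315 against 556 and 516 CPM). The type VI chains were Col6a1 (299 and 281 against 439 and 457 CPM) and Col6a2 (225 and 213 against 336 and 340 CPM). No call was made for Col4a1 (479 and 426 against 696 and 659 CPM), Col4a2 (285 and 276 against 408 and 409 CPM), Col15a1 (93.6 and 59.9 against 128 and 101 CPM) or Col18a1 (553 and 499 against 671 and 569 CPM). DESeq2 called 13 members, all 9 of these among them, 12 as higher and Col4a4 as lower, against 1.78% of all genes. The mice lay above in 24 members and below in 4, against 24.8% and 18.9% of all genes, and the median log2 fold was 0.53. Without WT replicate 1 edgeR called 14 members, and without Tubb3-/- replicate 1 it called 5.

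The summed fibroblast list (Pdgfrb, Dpt and Tcf21) was higher in these cells of both Tubb3-/- mice too. Its Pdgfrb was higher in mural cells than in fibroblasts (medians of 213 and 77.7 CPM), and its Dpt and Tcf21 were lower. Which of these genes raised the sum was not tested. The summed fibroblast list was at 271 to 274 CPM in WT and 358 to 378 CPM in Tubb3-/- mice, against 1040 to 1088 and 927 to 1037 CPM in fibroblasts. Over all mural cells the ranges overlapped, with 309 to 408 CPM in WT and 406 to 459 CPM in Tubb3-/- mice. Cthrc1, the marker of fibrotic fibroblasts, was at 42.3 and 49.4 CPM in WT against 145 and 114 CPM in Tubb3-/- mice in the Myh11 cells. Over all mural cells it was at 51.0 and 45.2 against 140 and 103 CPM. With the Myh11 cells kept only where the mural list was highest, 0 members passed with edgeR, 20 had an unadjusted p under 0.05, and the median log2 fold was 0.41. Col1a1 was then at 0.73 ± 0.09 (edgeR adjusted p = 0.0659). Without cells that had a Cthrc1 UMI, 0 passed, the median was again 0.41 and Col1a1 was at 0.71 ± 0.11 (edgeR adjusted p = 0.0714). The folds were smaller but positive under both choices, and these were added after the data were seen. In the 42 cells with Higd1b and without Myh11, 5 to 16 cells a mouse, 0 of 11 members passed with edgeR and 0 with DESeq2, against 0% and 0.129% of all genes, and 1 had an unadjusted p under 0.05, against 3.92%. That 1 was Col1a1, with 500 and 427 CPM in WT and 3595 and 475 CPM in Tubb3-/- mice, so that it rested on Tubb3-/- replicate 1. Col1a2 (1028 and 683 against 2627 and 713 CPM) and Col4a2 (1068 and 1345 against 1111 and 1545 CPM) overlapped, as did Col3a1 (673 to 2222 CPM over the 4 mice). Col4a1 had 1717 and 1420 against 1268 and 1307 CPM (-0.24 ± 0.47).

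Mesothelial cells had the largest median fold of the 6 populations, in 73 to 102 cells a mouse. Here 4 members of 24 tested rose in Tubb3-/- mice, against 0.356% of all genes. Col1a1 had 721 and 460 CPM in WT against 2045 and 1351 CPM (log2 fold 1.54 ± 0.25 SE, edgeR adjusted p = 0.0327), and Col1a2 had 759 and 744 against 1883 and 1441 CPM (1.15 ± 0.17, edgeR adjusted p = 0.0264). Col12a1 had 33.8 and 23.0 against 82.4 and 72.1 CPM (1.47 ± 0.26, edgeR adjusted p = 0.0478), and Col6a3 had 96.6 and 67.7 against 222 and 172 CPM (1.28 ± 0.23, edgeR adjusted p = 0.0491). The genotypes did not overlap in any of the 4. DESeq2 called 3, Col1a2, Col6a3 and Col5a2, against 0.388% of all genes, so Col1a1 and Col12a1 passed with edgeR alone. Col3a1 had 1817 and 1512 against 2316 and 2316 CPM (0.48 ± 0.14). Col4a1 had 258 and 167 against 423 and 343 CPM (0.86 ± 0.22). Col4a2 had 150 and 116 against 263 and 241 CPM (0.93 ± 0.19, edgeR adjusted p = 0.0955). These 3 lay above without overlap but did not pass. An unadjusted p under 0.05 was found in 16 members, against 8.58% of all genes, and the mice lay above in 16 and below in 3, against 19.1% and 18.8% of all genes. The median log2 fold was 0.74, and 1.15 without WT replicate 1. Leaving out a mouse changed the number called to 10 (WT replicate 1), 2 (WT replicate 2), 8 (Tubb3-/- replicate 1) or 11 (Tubb3-/- replicate 2). Col4a4 went the other way, with 362 and 360 CPM in WT against 201 and 259 CPM (-0.65 ± 0.17, edgeR adjusted p = 0.197), and Col8a1 had 5.97 and 6.77 against 19.7 and 104 CPM. Both of these were named after their values were seen.

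The mesothelial calls were lost when cells whose highest list was not the mesothelial one were left out. Where rule and list agreed, Col1a1 was at 0.44 ± 0.20 (edgeR adjusted p = 0.611), Col1a2 at 0.49 ± 0.16, Col12a1 at 0.30 ± 0.33 and Col6a3 at -0.33 ± 0.24, and 0 members passed. The number with an unadjusted p under 0.05 was then 7 of 20, and the median log2 fold 0.13. With every cell assigned by its highest list, 0 passed and Col1a1 was at 0.51 ± 0.12. With at least 2 UMIs of Msln, Col1a1 stayed at 1.48 ± 0.18 (edgeR adjusted p = 0.00163). The summed fibroblast list was at 67.0 to 94.6 CPM in WT and at 114 to 118 CPM in Tubb3-/- mesothelial cells, and Cthrc1 at 26.9 and 7.44 against 111 and 87.4 CPM.

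**Figure D4:**
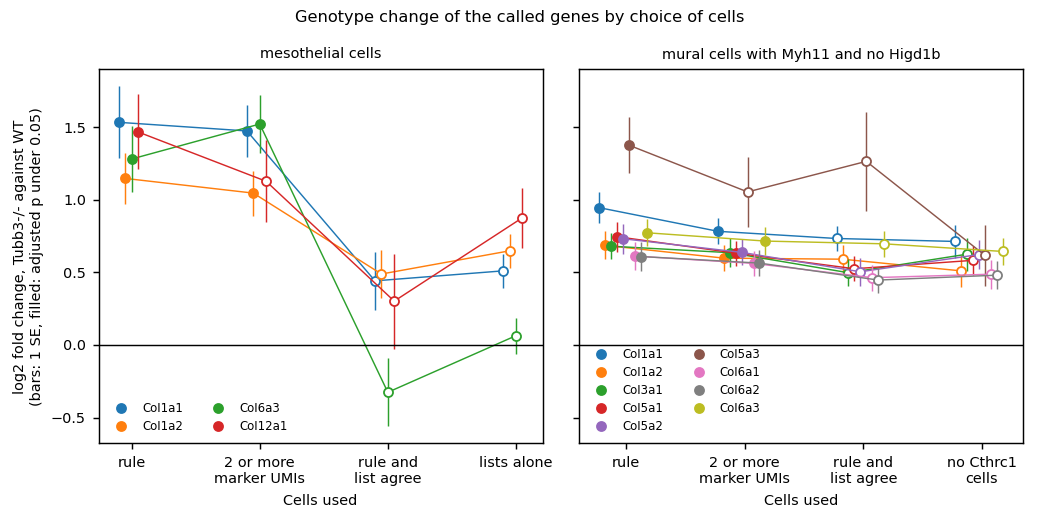
Log2 fold of Tubb3-/- over WT, with bars of 1 SE, for the members called in mesothelial cells (left) and in mural cells with Myh11 and no Higd1b (right), under other choices of cells. In mesothelial cells Col6a3 goes from 1.28 to -0.33 where rule and list agree, while in the Myh11 cells all 9 stay positive.

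Endothelial cells had higher Col4a1 and Col4a2 in both Tubb3-/- mice, with log2 folds of 0.60 ± 0.18 and 0.61 ± 0.17 (SE, edgeR adjusted p = 0.230 and 0.199). WT replicate 2 was the lowest in both. Col1a1 had 95.9 and 130 CPM in WT against 216 and 153 CPM (0.72 ± 0.20, edgeR adjusted p = 0.215). Col1a2 had 111 and 131 against 182 and 160 CPM (0.51 ± 0.13, edgeR adjusted p = 0.184). In the whole-cell libraries both type I chains were near their immune level, so no change made by endothelial cells is read from them. Col3a1 overlapped, with 163 and 229 against 196 and 196 CPM. Col18a1, below the level set for full values, had 22.2 and 23.9 against 41.3 and 44.1 CPM (0.89 ± 0.14, edgeR adjusted p = 0.0759) and came to 0.92 ± 0.14 (edgeR adjusted p = 0.0349) where rule and list agreed. Of 24 members tested, 0 passed with edgeR, as did 0% of all genes, and 11 had an unadjusted p under 0.05, against 13.6%. Without WT replicate 1, 4 passed, and without Tubb3-/- replicate 2, 2 did. DESeq2 called 2, Col4a2 as higher and Col4a3 as lower, against 0.997% of all genes. The mice lay above in 9 and below in 4, against 20.9% and 24.1% of all genes, and the median log2 fold was 0.16 (-0.01 to 0.37 with 1 mouse left out, lowest without Tubb3-/- replicate 1 and highest without Tubb3-/- replicate 2). Col18a1 was named after its values were seen.

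Epithelial and immune cells gave no member past the edgeR test. In epithelial cells 0 of 20 members passed with edgeR and 0 with DESeq2, against 0% and 0.0288% of all genes, and 2 had an unadjusted p under 0.05, against 4.26%. Col4a1 had 259 and 339 CPM in WT against 313 and 303 CPM in Tubb3-/- epithelial cells (log2 fold 0.00 ± 0.19 SE), and Col4a2 had 194 and 275 against 259 and 222 CPM. The fibrillar chains were at low levels in these cells. Col3a1 had 91.4 and 116 against 131 and 267 CPM (0.91 ± 0.36, edgeR adjusted p = 0.979). Col1a1 had 54.9 and 67.0 against 82.1 and 142 CPM (0.84 ± 0.31, edgeR adjusted p = 0.979). These 2 were the members with an unadjusted p under 0.05, and Tubb3-/- replicate 2 was the highest in both. That mouse had 36 of its 72 epithelial cells from the mural cell-enriched library, against 23 of 81 and 28 of 81 in WT and 30 of 87 in the other Tubb3-/- mouse. Epithelial collagen shares were 0.235% to 0.345% in that library and 0.108% to 0.174% in the whole-cell one. The part of this mix in the difference was not tested. Col1a2 overlapped (54.9 and 80.8 against 78.6 and 111 CPM). Col6a1, picked among members without overlap, had 67.7 and 76.5 against 111 and 89.2 CPM (0.42 ± 0.19). In immune cells 0 of 29 passed with edgeR, as did 0% of all genes, 14 had an unadjusted p under 0.05, against 8.37%, and DESeq2 called Col1a1 and Col1a2, 2 members against 0.469% of all genes. Without WT replicate 1 or 2, 3 immune members passed with edgeR. The mice lay above in 14 and below in 3, against 19.2% and 21.2%. Immune Col1a1 had 53.8 and 60.2 CPM in WT against 149 and 111 CPM (1.20 ± 0.16, edgeR adjusted p = 0.244), and where rule and list agreed the fold was 0.13 ± 0.11 (edgeR adjusted p = 0.761). Immune Col1a2 had 62.5 and 80.1 against 136 and 114 CPM (0.83 ± 0.15, edgeR adjusted p = 0.324), and Col3a1 overlapped (95.9 and 124 against 160 and 121 CPM).

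Col4a3 and Col4a4 had negative log2 folds in all 6 populations and passed with edgeR in none of them. Mural Col4a4 had 8.78 and 10.5 CPM in WT against 4.03 and 4.96 CPM (log2 fold -1.10 ± 0.19 SE, edgeR adjusted p = 0.177). Fibroblast Col4a4 had 11.6 and 6.96 against 5.32 and 5.70 CPM, and endothelial Col4a3 had 2.22 and 13.8 against 0.574 and 1.31 CPM (-3.20 ± 0.81, edgeR adjusted p = 0.184), where WT replicate 2 carried the difference. The summed epithelial list was at 412 to 537 CPM in WT and at 206 to 214 CPM in Tubb3-/- mural cells, at 191 to 437 against 166 to 169 CPM in fibroblasts, at 365 to 733 against 277 to 283 CPM in endothelial cells, and at 52732 to 100767 against 32233 to 45452 CPM in epithelial cells. It overlapped in immune cells (287 to 981 against 265 to 635 CPM) and went the other way in mesothelial cells (691 to 839 against 799 to 1707 CPM), where Col4a4 was at -0.65 ± 0.17. Its part in the difference was not tested. Both genes were named after their values were seen.

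Over all whole lung cells the type IV pair had the smallest p of the members. Col4a1 had 293 and 315 CPM in WT against 603 and 598 CPM in Tubb3-/- lungs (log2 fold 1.00 ± 0.08 SE, edgeR adjusted p = 0.128), and Col4a2 had 174 and 191 against 362 and 354 CPM (0.98 ± 0.08, edgeR adjusted p = 0.128). Col5a2 had 177 and 157 against 353 and 315 CPM (1.01 ± 0.12, edgeR adjusted p = 0.133). These 3 were picked as the largest folds among members at 50 CPM or more without overlap, so their lack of overlap is no result. Col1a1 had 770 and 509 against 1380 and 1119 CPM (0.98 ± 0.26). Col1a2 had 898 and 654 against 1450 and 1244 CPM (0.81 ± 0.21). Col3a1 had 1124 and 870 against 1786 and 1673 CPM (0.80 ± 0.18). WT replicate 2 was the lowest in each. The collagen share was 0.444% and 0.367% against 0.735% and 0.663%, a ratio of 1.72 (exact permutation p = 0.333). In such sums, more cells of a type and more RNA per cell cannot be told apart. By the marker rule, fibroblasts were 8.25% and 9.75% of WT and 9.55% and 9.75% of Tubb3-/- whole lung cells, and endothelial cells 9.13% and 13.4% against 14.2% and 15.3%. Of 40 members tested, 0 passed with edgeR, as did 0% of all genes, 23 had an unadjusted p under 0.05, against 15.9%, and DESeq2 called 16, all higher in Tubb3-/- mice, against 3.76%. Without WT replicate 1, edgeR called 9, and without WT replicate 2, 4. The mice lay above in 23 and below in 4, against 22.5% and 25.2% of all genes, and the median log2 fold was 0.52.

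Whether the difference between genotypes was unequal in different populations was tested with an interaction term in edgeR, with mouse as a covariate. For mural cells against fibroblasts 0 of the members passed, against 0.0065% of all genes, 8 had an unadjusted p under 0.05, against 8.9%, and DESeq2 called 1, Col6a3, against 0.448%. The type VI chains led, with Col6a3 higher by a further 0.57 ± 0.09 on the log2 scale in mural cells (edgeR adjusted p = 0.196), since it was at 0.18 ± 0.10 in fibroblasts and 0.77 ± 0.11 in mural cells. For endothelial cells against fibroblasts 0 passed, against 0% of all genes, 6 had an unadjusted p under 0.05, against 9.47%, and DESeq2 called 1, Col23a1, against 0.345%. Col23a1 differed by 1.61 ± 0.21 (edgeR adjusted p = 0.131), Col18a1 by 0.74 ± 0.15 (edgeR adjusted p = 0.161) and Col12a1 by -1.03 ± 0.31 (edgeR adjusted p = 0.323). Without WT replicate 1 these interactions passed in 8 and 10 members, and without WT replicate 2 in 2 and 5. Where rule and list agreed, 0 passed in either, and Col6a3 was at 0.51 ± 0.09 in the mural and Col12a1 at -1.48 ± 0.29 in the endothelial one.

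The genes that make and receive collagen were counted from lists of 31 biosynthesis genes (chaperones, hydroxylases, processing enzymes and crosslinkers) and 10 receptor and uptake genes. In cells with Myh11 and without Higd1b, 3 of 31 biosynthesis genes rose in Tubb3-/- mice, against 0.853% of all genes called there, and 20 had an unadjusted p under 0.05. They were P4ha3, a subunit of a prolyl hydroxylase (log2 fold 1.13 ± 0.10 SE, edgeR adjusted p = 0.0127), Loxl2, a crosslinking enzyme (0.79 ± 0.11, edgeR adjusted p = 0.0375), and Sparc, a collagen-binding protein (0.66 ± 0.10, edgeR adjusted p = 0.0472). DESeq2 called 6 there. In fibroblasts, mural, endothelial, epithelial, immune and mesothelial cells and the whole lung, 0 of these biosynthesis genes passed with edgeR, with median log2 folds of 0.08 to 0.34 over those tested. Of all genes, 0.356% passed in mesothelial cells and 0% in the others. An unadjusted p under 0.05 was found in 10, 19, 2, 0, 4, 8 and 18 of the genes, in that order, and DESeq2 called 3, 3, 1, 0, 1, 1 and 9. No receptor or uptake gene passed with edgeR in any population, where at most 3 had an unadjusted p under 0.05, and DESeq2 called 1 in fibroblasts and 1 in immune cells.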

How the data were processed

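Single-cell RNA-seq data were analysed from 8 tagged libraries, 2 pools of 4 mice each. The authors deposited raw UMI counts per gene and cell, made with Cell Ranger 7.1.0 on mm10 per the labels, without normalization. Mice were taken from the tags, as the labels assign them. Cells had 200 to 7500 genes and at most 15% mitochondrial UMIs, which kept 30860 of 32121 (12 had fewer genes, 275 more, 985 more mitochondrial UMIs). Doublets were not called. Cells with markers of several populations were dropped, 39.3% in the whole-cell and 53.1% in the mural cell-enriched libraries. Over both, these were 44.3% and 46.1% of the cells of WT mice and 48.2% and 48.2% of those of Tubb3-/- mice. Counts were summed per mouse and population over both libraries, since cells are not replicates, giving n = 2 mice per genotype. The test on these sums was the quasi-likelihood F test of edgeR 4.0.16 (R 4.3.3), after filterByExpr and TMM, with Benjamini-Hochberg adjustment over all genes and a threshold of 0.05, and DESeq2 1.42.0 was an alternative. Fold changes are log2. For collagen shares an exact permutation test was used (two-sided). The test was checked on simulated data.

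The members, lists and tests were chosen with earlier results of these data known. Full values are given for Col1a1, Col1a2, Col3a1, Col4a1, Col4a2, Col15a1 and Col18a1 from 50 CPM, for each member called, and for the 3 largest folds at 50 CPM or more whose genotypes did not overlap. Alternatives were another mitochondrial limit (10%), no cell limits, at least 2 marker UMIs, no filter on low counts, each library kind alone, each mouse left out, and a replicate block. Further ones were another normalization (RLE size factors) and fibroblasts without cells with a Cthrc1 UMI. For mural cells, those with Col1a1 above 1% of UMIs were also left out. Assignment by marker lists was added after the data were seen.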

Additional observations from a re-analysis of the deposited data

How the results depend on the processing

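Numbers of members called between genotypes depended on the method and on single mice, so the calls are only as firm as n = 2 allows. The edgeR counts of 0 became 3 (fibroblasts), 10 (mural), 2 (endothelial), 2 (immune), 16 (whole lung), and 1 and 1 (interactions of mural and endothelial cells with fibroblasts) with DESeq2. Without a filter on low counts, the counts were 18 (mural), 12 (endothelial), 1 (epithelial), 5 (immune), 12 (mesothelial), 22 (Myh11 without Higd1b), and 2 and 1 (both interactions). Leaving out 1 mouse gave 0 to 18 in fibroblasts, 0 to 14 in mural, 0 to 4 in endothelial, 0 to 3 in immune, 2 to 11 in mesothelial, 0 to 1 in Higd1b without Myh11, 5 to 14 in Myh11 without Higd1b cells, 0 to 9 in the whole lung, and 0 to 8 and 0 to 10 in the interactions, where the lone mouse of a genotype is assumed to vary like the others. The highest came without WT replicate 1, except without WT replicate 1 or 2 (3 each) in immune cells and without Tubb3-/- replicate 2 in mesothelial (11) and Higd1b cells (1). Endothelial cells had 1 call each with at least 2 marker UMIs, from the mural cell-enriched library alone, and where rule and list agreed. Mesothelial cells had 2 at a mitochondrial limit of 10%, 2 with no cell limits, and 0 from the whole-cell library alone, from the mural cell-enriched library alone, by marker lists, and where rule and list agreed. Myh11 cells had 0 from the whole-cell library alone, where rule and list agreed, and without cells with a Cthrc1 UMI. With the replicate block, the counts were 17 (fibroblasts), 15 (mural), 12 (mesothelial) and 16 (Myh11 cells), but the labels do not say that a number pairs mice, and deviations of same-numbered mice correlated at 0.0731 to 0.394 across genes. The difference in collagen share, in percentage points, turned to -0.0577 in epithelial cells with the mural cell-enriched library alone, ranged there from -0.013 to 0.0496 without 1 mouse, and turned to -0.00162 and -0.000453 in immune cells (mural cell-enriched library alone, rule and list agree), and 68 of 72 alternative shares kept their direction. Of 926 alternative log2 folds of the named genes, 37 reversed, in 11 of 63 pairs of gene and population. These were Col15a1 in fibroblasts (-0.0474 whole-cell library alone, -0.0012 without Cthrc1 cells), Col6a3 in mesothelial cells (-0.33, rule and list agree), Col3a1 in immune cells (-0.0741 mural cell-enriched library alone, -0.0181 rule and list agree) and Col3a1 in endothelial cells (-0.21 to 0.28 without 1 mouse, -0.0124 at a limit of 10%, -0.0134 without cell limits, -0.20 whole-cell library alone, -0.23 by marker lists, -0.10 rule and list agree). In epithelial cells Col4a1 was at 0.0125 with the replicate block, -0.23 to 0.22 without 1 mouse, 0.028 at a limit of 10%, 0.0382 without cell limits, 0.0793 with 2 marker UMIs, 0.0021 whole-cell library alone, 0.17 by lists and 0.20 where both agree, and Col4a2 at 0.0096 with the block, -0.28 to 0.28 without 1 mouse, 0.00026 at a limit of 10%, 0.0118 without cell limits, 0.18 with 2 marker UMIs, 0.20 by lists and 0.18 where both agree. In Higd1b cells leaving out 1 mouse moved Col3a1 from -0.32 to 1.37, Col1a2 from -0.32 to 1.77 and Col1a1 from -0.0198 to 3.10, each lowest without Tubb3-/- replicate 1. With 2 marker UMIs Col3a1 was at -0.24 and Col1a2 at -0.88 there, Col4a1 at 0.13, and Col4a1 at 0.57 whole-cell library alone, and Col4a2 at -0.0187 without a filter and -0.0584 mural cell-enriched library alone. The causes were not tested.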
